A study of Homo sapiens with 21 samples.

Results

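Transcript levels were compared between A673 cells (an established line of Ewing sarcoma) that had been rescued with either of 2 altered forms of the EWS/FLI fusion, mut9 or DAF. Ewing sarcoma arises from a chromosomal translocation that joins the intrinsically disordered N-terminal domain of EWSR1 to the DNA-binding part of FLI1, an ETS-family transcription factor. The fusion binds repeats of the 4-base sequence GGAA and single ETS sites, activates one set of genes and represses another. The low-complexity EWS domain is rich in repeats with a tyrosine, and its tyrosines are known to matter for self-association and for recruiting chromatin-remodelling and transcription machinery.

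The comparison used 6 of the 21 libraries of the series, all 3 of mut9 and all 3 of DAF, chosen by their group labels. In both groups the endogenous fusion was depleted with the iEF shRNA, which is directed at the 3′ end of the fusion transcript, given on day 1 and selected with puromycin at 2 µg/ml. A cDNA with a 3X-FLAG tag was given by retrovirus on day 5, and cells were kept in puromycin and hygromycin at 400 µg/ml from day 6 to day 16. DAF encodes the full-length fusion with tyrosines of the N-terminal EWS repeats changed to alanine, and mut9 encodes a fusion that has lost most of EWS and keeps a stretch at each end of the EWS domain, with its tyrosines unchanged. Per the study, mut9 rescues colony formation in soft agar and DAF does not, which is the contrast followed here. Other groups of 3 give reference levels, all in A673. They are iLuc (an shRNA against luciferase and an empty vector, endogenous fusion kept), iEF (the depleting shRNA and an empty vector), WT-EF (depleted, full-length fusion restored), Δ22 (depleted, a fusion without the EWS domain) and DAF-mut9 (depleted, alanine substitutions within the shortened form). The effect of the endogenous fusion, iLuc over iEF, is called endo-EF. All cells came from 1 line, and the labels number the libraries as replicates without saying whether each was a separate transduction, so a p-value here measures the spread between these libraries.

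The 6 libraries held 32.9 to 43.8 M counts. Levels are in CPM, the counts per 1 M of the TMM-adjusted library, and 1 CPM stood for 32.0 to 43.2 counts. A gene was called when the Benjamini-Hochberg adjusted p-value of edgeR's quasi-likelihood test, fitted to all 21 libraries with the replicate set as a block, was below 0.05. Fold changes are log2 of mut9 over DAF ± SE of the fitted model, and positive values mean higher with mut9. Replicates of each group correlated at r = 0.985 to 0.988 in log2 CPM. Replicate 2 of mut9 stood apart within its group, being the mut9 library farthest from the DAF mean in 63.8% of the called genes, and DAF replicate 2 was the DAF library farthest from the mut9 mean in 47.4%. Of the Ewing sarcoma markers, STEAP1, NR0B1, PRKCB and LIPI were read in every mut9 and DAF library. CD99, which lies in a pseudoautosomal region, had 0 to 2 counts in these libraries and could not be used. Markers of blood cells, mostly CD14, summed to 3.53 to 3.98 CPM with DAF and 2.09 to 2.36 CPM with mut9. Those of epithelium summed to 2.20 to 3.88 and 1.67 to 2.59 CPM. CD3E was at 0 counts, HBB and CDH1 at 0 to 3 counts and EPCAM at 3 to 9 counts. Other members were read in every library, among them CD14 at 53 to 115 counts, PTPRC at 8 to 28, KRT19 at 4 to 16 and CLDN4 at 45 to 94. Endothelial markers summed to 9.71 to 12.5 CPM with DAF and 2.34 to 6.34 CPM with mut9, mostly TIE1, and their part in the results was not tested.

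The level of the rescue construct was examined first. FLI1, whose reads come from the construct and from any remaining fusion transcript, stood at 28.3, 33.4 and 30.4 CPM with mut9 and 36.2, 39.8 and 35.1 CPM with DAF. The mut9 libraries were all below the DAF libraries, and the difference was not called (log2 fold change -0.27 ± 0.13, adjusted p = 0.265). Both levels include any remaining fusion transcript, so this value understates a difference between the constructs alone. Over iEF the log2 fold change was 0.57 ± 0.13 with mut9 and 0.84 ± 0.13 with DAF, from the same iEF libraries. Mean FLI1 levels in the other groups were 70.3 CPM in iLuc, 24.5 with WT-EF, 49.5 with Δ22 and 20.6 in iEF. EWSR1, read mainly from the intact allele, was at 267 CPM with mut9 and 261 CPM with DAF, also not called (log2 fold change 0.03 ± 0.09, adjusted p = 0.894). The libraries overlapped for this gene.

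Of 30549 genes tested, 2018 (6.61%) differed between mut9 and DAF, 955 (3.13%) higher with mut9 and 1063 (3.48%) lower. The difference was 2-fold or more in 1007 of them and 4-fold or more in 285, and the median of the absolute log2 fold change was 0.999. The 3 mut9 libraries and the 3 DAF libraries did not overlap in CPM for 1945 of the called genes. These genes were called on the same libraries, so that number is not separate support for the calls. Protein-coding genes made up 1673 of the called and 16417 of the tested genes. The count rested most on the second library of each group, with 872 genes called without mut9 replicate 2 (857 of them among the 2018) and 1004 without DAF replicate 2 (973 among the 2018). Without any of the other libraries, 1372 to 1684 genes were called, and the genes higher with mut9 numbered 627 without DAF replicate 1. Requiring a 2-fold change left 546 genes higher and 461 lower with mut9. The split between directions was 1741 higher and 748 lower when the authors' ComBat-adjusted values were tested with limma instead.

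**Figure D1:**
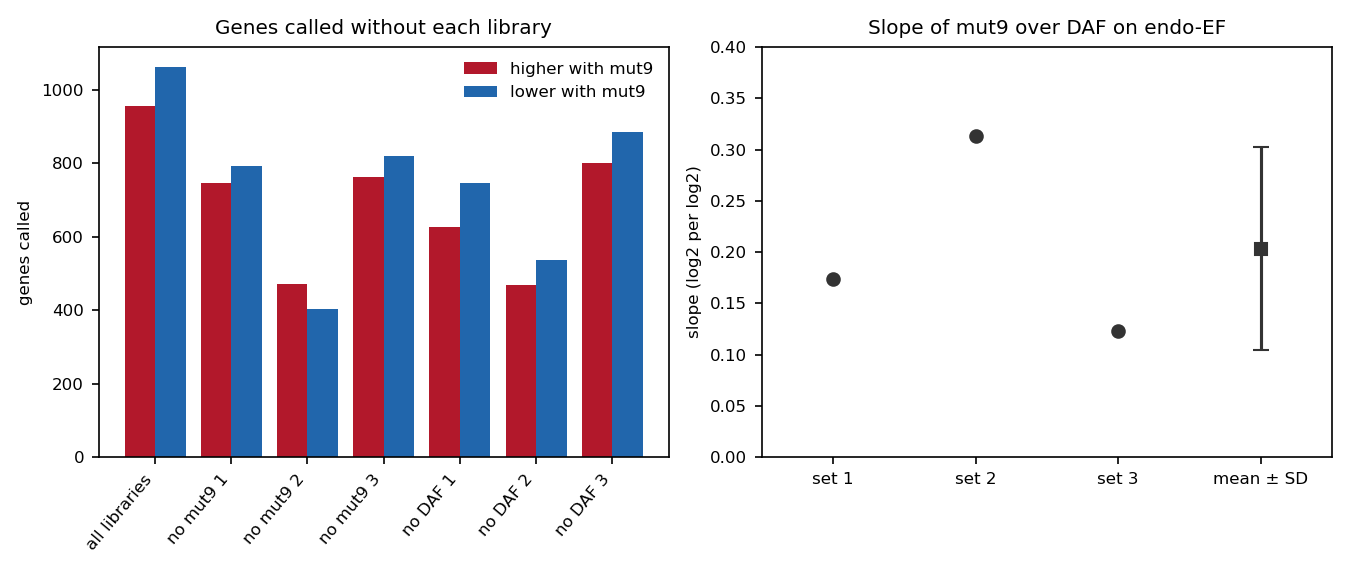
Left, number of genes called higher (red) or lower (blue) with mut9 when all libraries were used and when each mut9 or DAF library was left out. Right, slope of mut9 over DAF on endo-EF in each replicate set, with mean and SD; the count is lowest without mut9 replicate 2 and the slope is highest in set 2, at 0.31.

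The genes that differed were then placed by their response to the endogenous fusion, in libraries that neither construct shares. Endo-EF activated 5727 of the tested genes (18.7%) and repressed 6833 (22.4%). Of the 955 genes higher with mut9, 773 (80.9%, 95% Wilson interval 78.3 to 83.3%) were activated by endo-EF and 32 were repressed. Of the 1063 genes lower with mut9, 941 (88.5%, interval 86.5 to 90.3%) were repressed by endo-EF and 26 were activated. Thus 1714 of the 1772 called genes with an endo-EF response (96.7%) lay on the side of the endogenous fusion, with mut9 differing from DAF in the direction in which iLuc differed from iEF. These genes are a small share of each class, since 13.5% of activated and 13.8% of repressed genes were called in that direction. Across the 12560 endo-EF genes, the slope of mut9 over DAF on iLuc over iEF was 0.17, 0.31 and 0.12 in sets 1, 2 and 3 (0.20 ± 0.10, mean ± SD, n = 3). It was positive in each set and highest in set 2, which holds the second library of both groups.

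**Figure D2:**
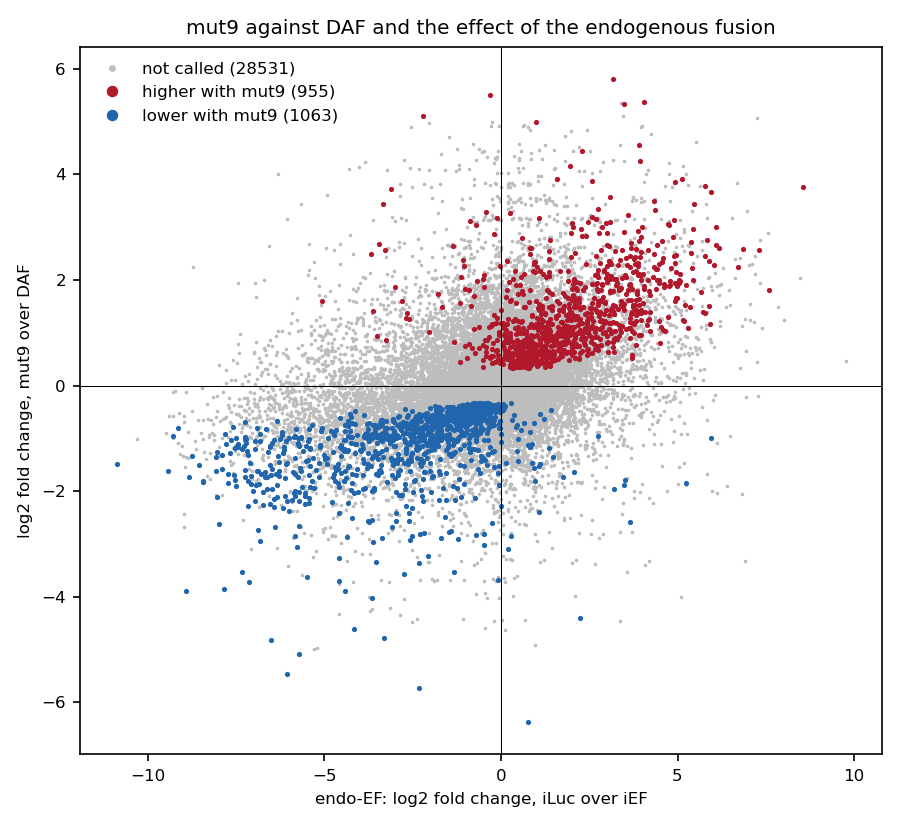
Each point is 1 of 30549 tested genes, with the log2 fold change of iLuc over iEF (endo-EF) on the x axis and of mut9 over DAF on the y axis; called genes are red (higher with mut9, 955) or blue (lower, 1063). Called genes lie mainly in the upper right and lower left quadrants, 96.7% of those with an endo-EF response.

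The same genes were then read in the libraries of the restored full-length fusion. WT-EF over Δ22 raised 3261 of the tested genes (10.7%) and lowered 4442 (14.5%). Of the genes higher with mut9 than DAF, 828 (86.7%) were also higher with WT-EF, which is 25.4% of the genes WT-EF raised. Of those lower with mut9, 999 (94.0%) were lower with WT-EF, 22.5% of the genes WT-EF lowered. Only 3 genes were called in opposite directions in the 2 comparisons, 1 higher and 2 lower with mut9. In 643 of the genes higher with mut9 (67.3%, against 7.44% of all tested genes), every iLuc and WT-EF library was above every iEF, Δ22 and DAF-mut9 library. In 848 of the genes lower with mut9 (79.8%, against 10.5% of all tested genes), every one was below.

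Among the known targets used to follow rescue in this system, NR0B1, a nuclear receptor gene activated through a GGAA repeat, stood at 56.6, 41.7 and 41.1 CPM with mut9 and 19.9, 38 and 24.1 CPM with DAF. All mut9 libraries were above the DAF libraries, but the difference missed the threshold (log2 fold change 0.83 ± 0.27, adjusted p = 0.0676). It was called by DESeq2, with no low-count filter and with the ComBat-adjusted values, and its adjusted p ran from 4.37e-06 to 0.345 over the alternatives tried. NKX2-2, a homeodomain factor, was at 2.5, 4.05 and 1.57 CPM with mut9 and 1.5, 1.81 and 2.38 CPM with DAF, with overlapping groups (log2 fold change 0.45 ± 0.26, adjusted p = 0.358). Repressed targets differed more clearly. TGFBR2, the type II TGF-beta receptor, was at 134, 109.8 and 104 CPM with mut9 and 195, 226 and 210.2 CPM with DAF (log2 fold change -0.86 ± 0.18, adjusted p = 0.00423). IGFBP3, a secreted binding protein for insulin-like growth factors, was at 1718, 1288 and 2214 CPM with mut9 and 5519, 4506 and 3566 CPM with DAF (log2 fold change -1.35 ± 0.23, adjusted p = 0.00108). Both were lower in every mut9 library than in any DAF library, and both stayed above the levels of WT-EF, 70.4 and 353 CPM, and of iLuc, 39.4 and 16.9 CPM. LOX, a collagen cross-linking enzyme, was at 97.6, 49.8 and 140.3 CPM with mut9 and 213, 179 and 125 CPM with DAF, with mut9 replicate 3 inside the DAF range (log2 fold change -0.89 ± 0.26, adjusted p = 0.0442). Its call was lost without mut9 replicate 1 or 2 and without DAF replicate 1 or 2, and its adjusted p ran up to 0.411 over the alternatives tried.

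Because GGAA repeats are the response elements through which the fusion is known to activate, the genome upstream of the tested genes was searched for them. A run was counted where GGAA, or TTCC for the other strand, was repeated at least 4 times without a break within 5 kb upstream of the outermost annotated start. Among protein-coding genes, such a run lay upstream of 35 of 711 genes higher with mut9 (4.92%), 25 of 962 genes lower with mut9 (2.60%) and 390 of all 16417 tested (2.38%). Runs of 8 or more lay upstream of 22 genes higher with mut9 (3.09%), 5 lower (0.52%) and 128 of all tested (0.78%). These shares are descriptions, and longer-range repeats were not counted. The longest runs beside genes named here are shown because they are the kind of element that mut9 and DAF were compared on. They are given on the plus strand of GRCh37 with the unbroken run in capitals.
NR0B1, minus-strand gene, chrX:30328855-30328938: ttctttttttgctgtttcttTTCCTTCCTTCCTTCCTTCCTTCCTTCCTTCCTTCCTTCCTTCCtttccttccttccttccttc
LIPI, minus-strand gene, chr21:15585593-15585676: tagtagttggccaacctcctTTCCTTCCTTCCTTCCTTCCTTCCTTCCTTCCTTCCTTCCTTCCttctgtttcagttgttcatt
CACNB2, plus-strand gene, chr10:18425997-18426080: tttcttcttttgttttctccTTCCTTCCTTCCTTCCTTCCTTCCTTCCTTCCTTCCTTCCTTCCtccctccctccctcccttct
SCNN1G, plus-strand gene, chr16:23193047-23193138: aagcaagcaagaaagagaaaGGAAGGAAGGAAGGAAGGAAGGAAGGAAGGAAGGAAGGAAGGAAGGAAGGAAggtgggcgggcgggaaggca
SLC1A4, plus-strand gene, chr2:65215168-65215255: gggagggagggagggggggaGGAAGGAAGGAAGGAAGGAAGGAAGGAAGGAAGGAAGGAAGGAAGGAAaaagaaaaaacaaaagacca
The runs hold 11 repeats at NR0B1, LIPI and CACNB2, 13 at SCNN1G and 12 at SLC1A4, and end 1368, 2337, 3293, 948 and 376 bases from the gene start, in that order. The genes beside them did not move alike. LIPI, a membrane-associated lipase, was at 47, 71.8 and 37.8 CPM with mut9 and 12.3, 13 and 16.1 CPM with DAF (log2 fold change 1.90 ± 0.18, adjusted p = 3.45e-06). CACNB2, a calcium channel subunit, averaged 17.7 against 6.45 CPM, log2 fold change 1.43 ± 0.17, adjusted p = 1.94e-05. SCNN1G, a subunit of the epithelial sodium channel, was at 8.07, 16.4 and 5.79 CPM with mut9 and 1.23, 1.6 and 2.13 CPM with DAF (log2 fold change 2.58 ± 0.34, adjusted p = 7.61e-05). For these 3 genes every mut9 library was above every DAF library, which for SCNN1G was a condition of its choice. SLC1A4, a neutral amino acid transporter, was lower with mut9 (42.9 against 62.6 CPM, log2 fold change -0.54 ± 0.14, adjusted p = 0.0256), a call lost without replicate 1 or 3 of either group.

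The largest rises with mut9 were in DKK2, a secreted modulator of Wnt signalling at chr4:107842959-108204963. It was read at 87, 160.2 and 61.1 CPM with mut9 and 11.2, 9.07 and 13 CPM with DAF (log2 fold change 3.14 ± 0.31, adjusted p = 3.45e-06). PCSK2, a convertase that matures neuropeptide precursors (chr20:17206752-17465223), was at 47.4, 69.5 and 50.3 CPM with mut9 and 9.77, 7.93 and 9.85 CPM with DAF (log2 fold change 2.58 ± 0.17, adjusted p = 2.46e-08). PDGFD, a platelet-derived growth factor (chr11:103777917-104035107), was at 18.6, 36.1 and 15.8 CPM with mut9 and 3.47, 2.11 and 3.03 CPM with DAF (log2 fold change 3.00 ± 0.27, adjusted p = 2.14e-06). Groups without overlap were a condition of choosing these genes, so their separation is no added result. Replicate 2 was the highest of the mut9 libraries each time. With DAF, DKK2 and PCSK2 remained near the depleted level, at a mean of 11.1 and 9.18 CPM against 6.5 and 6.71 CPM in iEF, where mut9 over iEF was 3.92 ± 0.33 and 3.06 ± 0.17 and DAF over iEF 0.78 ± 0.30 and 0.48 ± 0.17 (adjusted p = 0.145 and 0.0938 for DAF). Both comparisons share the iEF libraries. Other large rises were in KCNH5, a voltage-gated potassium channel (log2 fold change 2.81 ± 0.28, adjusted p = 3.45e-06), SERTM1, a small membrane protein (log2 fold change 2.64 ± 0.21, adjusted p = 5.55e-07), SLC35F3 (log2 fold change 2.52 ± 0.35, adjusted p = 0.000109), TSPAN8, a tetraspanin (log2 fold change 2.46 ± 0.28, adjusted p = 1.17e-05), GPR174, a receptor for lysophosphatidylserine (log2 fold change 2.45 ± 0.39, adjusted p = 0.000414), and FRZB, a secreted Wnt antagonist (log2 fold change 2.45 ± 0.34, adjusted p = 0.000129). TSPAN8 was at 11.9, 18.7 and 8.96 CPM with mut9 and 1.69, 2.65 and 2.78 CPM with DAF, far under the 93.6 CPM of iLuc, and was not called with ComBat-adjusted values. SERTM1 and PDGFD went the other way, with mean mut9 levels of 221 and 23.5 CPM, above the iLuc means of 116 and 5.6 CPM.

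Of the 36 genes listed as known activated targets, 22 were called higher with mut9 and none lower (61.1% called). Their median log2 fold change was 0.80 against 0.05 over all tested genes. Shares called in this and the later lists stand against 6.61% called over all tested genes. Protein-coding genes, the kind these lists hold, were called more often, 1673 of 16417, and are the nearer reference. IGF1, the ligand of the growth factor receptor IGF1R (chr12:102789652-102875522), was at 108, 144 and 91.2 CPM with mut9 and 21.7, 24.8 and 27.6 CPM with DAF (log2 fold change 2.19 ± 0.23, adjusted p = 5.29e-06). It was above its iLuc mean of 32.6 CPM in every mut9 library, and DAF itself was above iEF (2.51 ± 0.24, adjusted p = 1.55e-06). UGT3A2, a glycosyltransferase, was at 119.6, 161 and 111 CPM with mut9 and 43.7, 50.1 and 53.1 CPM with DAF (log2 fold change 1.39 ± 0.17, adjusted p = 3.74e-05). The remaining called members included the Hedgehog effector GLI1, the polycomb methyltransferase EZH2, the cyclin CCND1 and the neuropeptide receptors NPY1R and NPY5R. The number called was 12 without mut9 replicate 2 and 12 without DAF replicate 2. The 6 called of 9 HOXD genes (66.7%), homeobox genes of limb and axial patterning, were also all higher with mut9. Over all 9, 8 values were positive and 1 was negative, each at an unadjusted edgeR p below 0.05. HOXD10 was at 50.6, 59.4 and 44.3 CPM with mut9 and 29.3, 25.9 and 31.3 CPM with DAF (log2 fold change 0.82 ± 0.13, adjusted p = 0.000585), HOXD13 averaged 26.1 against 16.5 CPM, log2 fold change 0.65 ± 0.12, adjusted p = 0.00142, and HOXD9 14.9 against 6.7 CPM, log2 fold change 1.12 ± 0.19, adjusted p = 0.000756. HOXD10 shares 452 exon bases on the same strand with HOXD11, and its count is uncertain to that extent. The HOXD count was 4 without DAF replicate 2. Both lists were drawn up with targets already known in this cell line. These and the later lists were chosen with earlier results of these data known, so their shares are descriptions and not separate support.

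**Figure D3:**
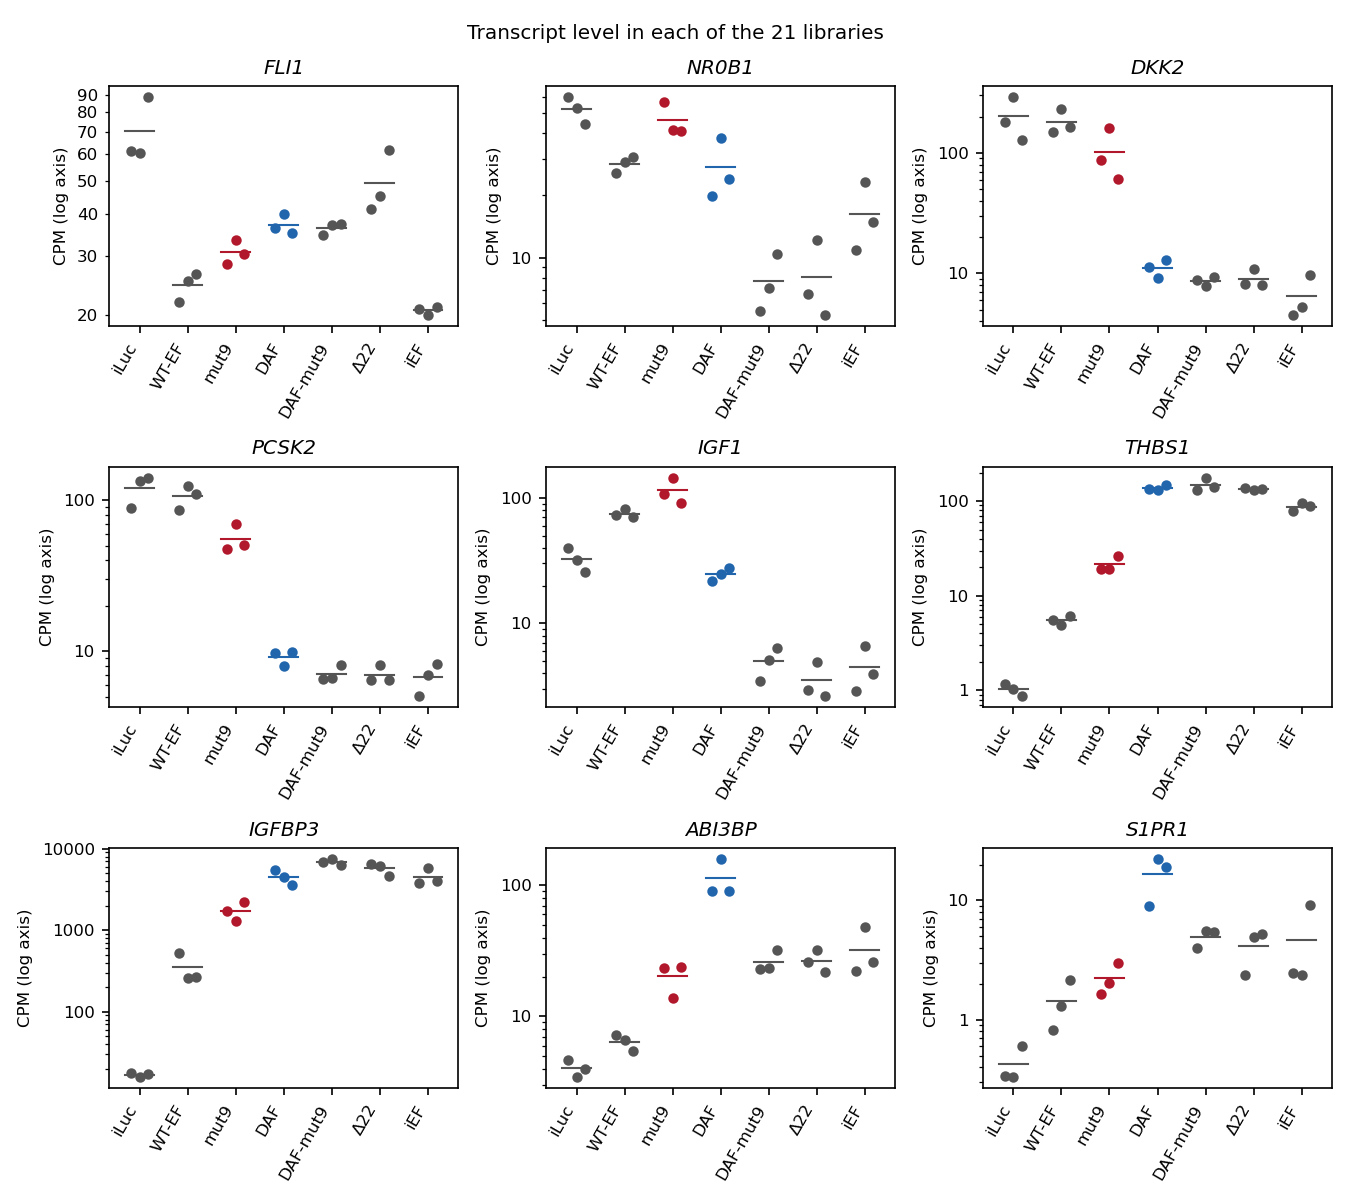
CPM on log axes in each library of the 7 groups for 9 genes, with mut9 in red, DAF in blue, other groups in grey, and a line at the mean of each group. DKK2, PCSK2 and IGF1 are higher in all mut9 than in all DAF libraries, THBS1, IGFBP3, ABI3BP and S1PR1 are lower, and FLI1 was not called.

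Called genes of neural development and of secretory neuroendocrine cells were mostly higher with mut9. Of 25 neural transcription factors tested, 8 rose with mut9 and none fell (32.0% called, median log2 fold change 0.23). POU3F1, a POU-domain factor of neural and Schwann cell lineages, was at 20.3, 28.8 and 16.5 CPM with mut9 and 5.24, 4.49 and 6.38 CPM with DAF (log2 fold change 2.02 ± 0.19, adjusted p = 2.84e-06). ISL1, a LIM-homeodomain factor of motor and sensory neurons, was at 7.33, 10.7 and 5.87 CPM with mut9 and 2.92, 2.92 and 3.5 CPM with DAF (log2 fold change 1.36 ± 0.20, adjusted p = 0.00025). FEZF1, a forebrain zinc-finger factor, averaged 12 against 4.22 CPM, log2 fold change 1.52 ± 0.21, adjusted p = 0.000103, and POU4F1, a sensory neuron factor, 12.2 against 5.86 CPM, log2 fold change 1.06 ± 0.15, adjusted p = 0.000115. FEZF1 and POU4F1 have 782 and 1258 exon bases opposite an antisense gene, and the strand setting of the counting is not stated. Without any one library, 7 or 8 of the list were called. Of 24 neuropeptides, granins and their processing enzymes and receptors, 8 rose and 1 fell (37.5% called, median log2 fold change 0.59). Beside PCSK2 these were led by GRP, a bombesin-like peptide (12.4 against 4.11 CPM, log2 fold change 1.59 ± 0.21, adjusted p = 8.74e-05), CALCB, a calcitonin gene-related peptide (4.74 against 1.56 CPM, log2 fold change 1.60 ± 0.24, adjusted p = 0.000264), and NPY, neuropeptide Y (8.96 against 2.2 CPM, log2 fold change 2.02 ± 0.33, adjusted p = 0.000498). CALCB shares 115 exon bases with the pseudogene CALCP. The count was 6 when mut9 replicate 2, DAF replicate 2 or DAF replicate 3 was left out. GRP stayed well under its iLuc mean of 66.1 CPM, while NPY was at 10.1 CPM there. Of 32 genes of the synaptic vesicle and its release machinery 2 were called (6.25%, against 6.61% over all tested genes and 1673 of 16417 protein-coding genes). Only 1 was called without any single library other than DAF replicate 3. RAB3B, a vesicle-bound GTPase, was at 479.9, 381 and 341 CPM with mut9 and 227, 262 and 223 CPM with DAF (log2 fold change 0.75 ± 0.15, adjusted p = 0.0039) although it was lower in iLuc than in iEF (-1.02 ± 0.15, adjusted p = 1.31e-05).

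Channel and guidance genes moved both ways. Among 45 potassium channel genes 5 rose with mut9 and 4 fell (median log2 fold change 0.09). KCNA2, a delayed rectifier of neurons, averaged 9.49 against 4.8 CPM, log2 fold change 0.99 ± 0.19, adjusted p = 0.00269. KCNK3, a background leak channel, was at 1.78, 1.94 and 1.92 CPM with mut9 and 11.2, 13.5 and 9.07 CPM with DAF (log2 fold change -2.58 ± 0.27, adjusted p = 5.05e-06), and KCNMA1, the large-conductance calcium-activated channel, was at 17.3, 12.6 and 30.3 CPM with mut9 and 41, 38.1 and 34.6 CPM with DAF (log2 fold change -0.96 ± 0.23, adjusted p = 0.0138). The KCNMA1 call was lost without replicate 1 or 2 of either group. The number of potassium channel genes called was 3 when the second library of either group was left out and 5 without DAF replicate 1. Of 28 calcium and sodium channel genes, 4 rose and 1 fell, the risers being CACNB2 and the pore or accessory subunits CACNA1H (10.8 against 4.5 CPM, log2 fold change 1.25 ± 0.18, adjusted p = 0.000194), CACNA1G (3.27 against 1.3 CPM, log2 fold change 1.31 ± 0.27, adjusted p = 0.00407) and CACNA2D1 (130.1 against 92.6 CPM, log2 fold change 0.50 ± 0.12, adjusted p = 0.0169). This count, 17.9% of the list, was 3 without mut9 replicate 2 or DAF replicate 2. CACNA2D1 was not called without mut9 replicate 2, DAF replicate 2 or DAF replicate 3. Of 51 axon guidance genes, 5 rose and 6 fell (21.6% called). DCC, the netrin receptor, was at 90.9, 128 and 79 CPM with mut9 and 28.7, 34.2 and 33.1 CPM with DAF (log2 fold change 1.60 ± 0.13, adjusted p = 5.55e-07), and EPHA5, an ephrin receptor of axons, was at 24.7, 28.5 and 20.04 CPM with mut9 and 6.52, 3.56 and 4.85 CPM with DAF (log2 fold change 2.30 ± 0.26, adjusted p = 1.17e-05). In the other direction, the netrin NTN4 was at 40.2, 41 and 51.9 CPM with mut9 and 153, 214 and 152 CPM with DAF (log2 fold change -1.96 ± 0.18, adjusted p = 1.96e-06), and the semaphorin SEMA3F averaged 2.24 against 6.41 CPM, log2 fold change -1.50 ± 0.20, adjusted p = 6.56e-05. The NTN4 level with mut9 was between the 173 CPM of DAF and the 14 CPM of WT-EF.

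Called chromatin and cell cycle genes were mostly higher with mut9, and their share is given against the 6.61% called over all tested genes. Over protein-coding genes alone the share was higher, 1673 of 16417. Of 50 BAF, NuRD and polycomb subunits, 5 rose and 1 fell (12.0% called, median log2 fold change 0.08). SMARCC1, a core BAF subunit, was at 289, 342 and 275 CPM with mut9 and 178, 191 and 205 CPM with DAF (log2 fold change 0.65 ± 0.12, adjusted p = 0.00161), and EZH2 was at 152, 179 and 173 CPM with mut9 and 108, 92.4 and 121 CPM with DAF (log2 fold change 0.65 ± 0.12, adjusted p = 0.00228). The count for these subunits was 3 without DAF replicate 2. CCND1, a D-type cyclin, was at 2602, 2159 and 2189.7 CPM with mut9 and 1685, 1672 and 1514 CPM with DAF (log2 fold change 0.51 ± 0.11, adjusted p = 0.00713). E2F2, an S-phase transcription factor, averaged 23.5 against 9.44 CPM, log2 fold change 1.33 ± 0.26, adjusted p = 0.00298. CDKN2C was the other called member of 21 G1 genes (14.3% called), with DAF replicate 1 inside the mut9 range and a call lost in 9 of the 13 alternatives. The G1 count was 2 when DAF replicate 2 or 3 or mut9 replicate 2 was left out. In the DNA replication and mitosis list, 52 of 54 members had a positive value and a median of 0.26, yet MCM6, a subunit of the replicative helicase, was its only call (1.85% of the list, 83.3 against 52.8 CPM, log2 fold change 0.66 ± 0.15, adjusted p = 0.0108), lost without mut9 replicate 2 or DAF replicate 2, and 2 members were called without DAF replicate 3. None of 32 cholesterol and fatty acid genes and none of 35 ribosome biogenesis genes was called by edgeR, with 6 and 1 at an unadjusted p below 0.05 and 1 and 1 called by DESeq2. The lowest p of each were HSD17B7 (adjusted p = 0.0714, log2 fold change 0.53 ± 0.17) and LYAR (adjusted p = 0.0805, -0.34 ± 0.11). Of 30 serine synthesis and ATF4 genes, SLC1A4 was the 1 called.

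Called genes for matrix, adhesion and contraction were mostly lower with mut9 than with DAF. THBS1, a matricellular glycoprotein that activates latent TGF-beta (chr15:39873280-39891667), was at 19.2, 19.2 and 26.4 CPM with mut9 and 134, 132 and 148 CPM with DAF (log2 fold change -2.68 ± 0.14, adjusted p = 7.13e-10). The 3 mut9 libraries lay close together, far below the DAF libraries, and WT-EF and iLuc were lower still at 5.52 and 1.03 CPM. With DAF, THBS1 was above the 87.6 CPM of iEF (DAF over iEF 0.65 ± 0.13, adjusted p = 0.00338), while mut9 was below it (-2.02 ± 0.14). That rise was not particular to DAF, since Δ22 and DAF-mut9 averaged 134 and 150 CPM against 138 CPM with DAF. Of 44 matrix glycoproteins and lysyl oxidases, 15 fell with mut9 and 2 rose (38.6% called, median log2 fold change -0.52). LAMC1, a laminin chain of basement membranes, was at 505, 407 and 455 CPM with mut9 and 807, 1061 and 917 CPM with DAF (log2 fold change -1.003 ± 0.17, adjusted p = 0.000741). SPOCK1, a proteoglycan, averaged 11.8 against 29.9 CPM, log2 fold change -1.37 ± 0.26, adjusted p = 0.00194, and ELN, elastin, 24.6 against 50.3 CPM, log2 fold change -1.03 ± 0.20, adjusted p = 0.0023. The count of 17 became 9 or 8 when mut9 replicate 1 or 2 was left out, and 9, 11 or 11 when DAF replicate 1, 2 or 3 was.

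Collagens split. COL6A1 was at 224, 121 and 182 CPM with mut9 and 403, 481 and 449.5 CPM with DAF (log2 fold change -1.32 ± 0.27, adjusted p = 0.00351), and COL6A2, its partner in the beaded filaments of collagen VI, at 317, 174 and 266 CPM with mut9 and 544, 618 and 556 CPM with DAF (log2 fold change -1.17 ± 0.25, adjusted p = 0.00651). COL21A1, a collagen associated with fibrils, rose instead and was at 78.4, 126 and 55.8 CPM with mut9 and 22.9, 13.9 and 19.5 CPM with DAF (log2 fold change 2.10 ± 0.29, adjusted p = 0.000109). Altogether 5 of 39 collagens fell and 1 rose (15.4% called, against 6.61% over all tested genes and 1673 of 16417 protein-coding genes). The count was 2 without mut9 replicate 2 and 3 without DAF replicate 1. The COL6A2 call was lost without mut9 replicate 2, and the COL6A1 call with ComBat-adjusted values. Among 38 matrix proteases and inhibitors, 8 fell and none rose (median log2 fold change -0.54), including TIMP3, an inhibitor of metalloproteinases (23.5 against 82.5 CPM, log2 fold change -1.77 ± 0.32, adjusted p = 0.00134), PLAUR, the urokinase receptor (57.7 against 116 CPM, log2 fold change -1.03 ± 0.19, adjusted p = 0.00196), and PLAT, tissue plasminogen activator (137 against 439 CPM, log2 fold change -1.68 ± 0.32, adjusted p = 0.00208). The 8 called were 21.1% of this list, and without any one library 6 to 8 were called.

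Of 41 integrin and focal adhesion genes, 11 fell and 1 rose (29.3% called, median log2 fold change -0.44). TNS3, a tensin that links integrins to actin, was at 1.13, 0.957 and 1.11 CPM with mut9 and 3.49, 12.8 and 11.6 CPM with DAF (log2 fold change -2.94 ± 0.39, adjusted p = 6.78e-05), ITGA3, a laminin-binding integrin chain, at 129, 89.2 and 135 CPM with mut9 and 260.3, 289 and 292 CPM with DAF (log2 fold change -1.26 ± 0.18, adjusted p = 0.000131), and ITGB3, the beta chain of the vitronectin receptor, at 2.59, 2.33 and 4.28 CPM with mut9 and 13.4, 16.3 and 12.2 CPM with DAF (log2 fold change -2.19 ± 0.26, adjusted p = 1.94e-05). ITGB3 shares 2266 exon bases with an annotated gene on the same strand and its count is uncertain. In all 3 genes every mut9 library was below every DAF library, which for TNS3 was a condition of its choice. The count of 12 was 6 without mut9 replicate 2 and 7 without DAF replicate 1. Contractile targets of the serum response factor fell in 8 of 25 and rose in none (median log2 fold change -0.41), for example FHL2, a LIM-domain cofactor (27.2 against 48.2 CPM, log2 fold change -0.85 ± 0.17, adjusted p = 0.00262), and TPM1, a tropomyosin (226 against 457 CPM, log2 fold change -1.03 ± 0.23, adjusted p = 0.00835). This count, 32.0% of the list, was 2 without mut9 replicate 2, 4 without DAF replicate 2, 5 without mut9 replicate 1 and 5 without DAF replicate 3. TPM1 has 3336 exon bases opposite antisense genes and lost its call without mut9 replicate 2. YAP and TEAD targets fell in 10 of 22 and rose in none (median log2 fold change -0.55), led by ANKRD1, a stretch-responsive nuclear protein that was at 94.9, 81.9 and 159.9 CPM with mut9 and 427, 496 and 466 CPM with DAF (log2 fold change -2.08 ± 0.33, adjusted p = 0.000403). MYOF, a membrane-repair protein, averaged 313 against 594 CPM, log2 fold change -0.94 ± 0.18, adjusted p = 0.00206, and CCN2, a matricellular growth factor, 87.4 against 183 CPM, log2 fold change -1.02 ± 0.20, adjusted p = 0.00278. The CCN2 call was lost without the replicate block (adjusted p = 0.0845). The YAP and TEAD count, 45.5% of the list, was 4 without mut9 replicate 2 and 6 without DAF replicate 2. Several genes, among them IGFBP3, CCN2 and DLC1, stand in more than 1 of these lists.

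The transcription factors of mesenchymal lineages followed the same direction, 7 of 28 lower and 1 higher with mut9 (28.6% called, median log2 fold change -0.61). ZEB1, a zinc-finger repressor of epithelial genes, was at 19, 20.5 and 26.3 CPM with mut9 and 46.9, 78.7 and 60.2 CPM with DAF (log2 fold change -1.47 ± 0.21, adjusted p = 0.000129). CREB3L1, a regulator of collagen secretion, was at 5.48, 4.81 and 6.31 CPM with mut9 and 14.1, 26.7 and 24.5 CPM with DAF (log2 fold change -1.94 ± 0.33, adjusted p = 0.000834), and FOXC1, a forkhead factor, averaged 7.83 against 14.1 CPM, log2 fold change -0.85 ± 0.15, adjusted p = 0.00141. EBF3 was the member that rose, at 51, 67.8 and 61.3 CPM with mut9 and 27.5, 23.4 and 31.5 CPM with DAF (log2 fold change 1.12 ± 0.14, adjusted p = 3.89e-05). The count of 8 was 4 without mut9 replicate 2 and 5 without mut9 replicate 1, DAF replicate 1 or DAF replicate 2. NR2F1, an orphan nuclear receptor outside the list, was at 3.65, 3.73 and 5.99 CPM with mut9 and 21.2, 32.7 and 26.2 CPM with DAF (log2 fold change -2.58 ± 0.29, adjusted p = 1.19e-05). Of the 30 listed repressed targets, 12 fell and none rose (40.0% called, median log2 fold change -0.65), and 7 were called without mut9 replicate 2. CDH11, a cadherin of mesenchymal cells counted in that list, was at 192, 225 and 189 CPM with mut9 and 323, 417 and 346 CPM with DAF (log2 fold change -0.84 ± 0.12, adjusted p = 0.000183), although in these libraries it was higher in iLuc than in iEF (0.58 ± 0.12, adjusted p = 0.000537). Of 16 SOX factors, SOX8 (13.1 against 4.93 CPM, log2 fold change 1.43 ± 0.29, adjusted p = 0.0038) and SOX1 were called, both higher with mut9, and SOX1 was lost without mut9 replicate 2 or 3 and without DAF replicate 1 or 2. Their number was 1 without mut9 replicate 2, DAF replicate 1 or DAF replicate 2. SOX8 and SOX1 were 12.5% of the SOX list, against 6.61% called over all tested genes and 1673 of 16417 protein-coding genes.

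**Figure D4:**
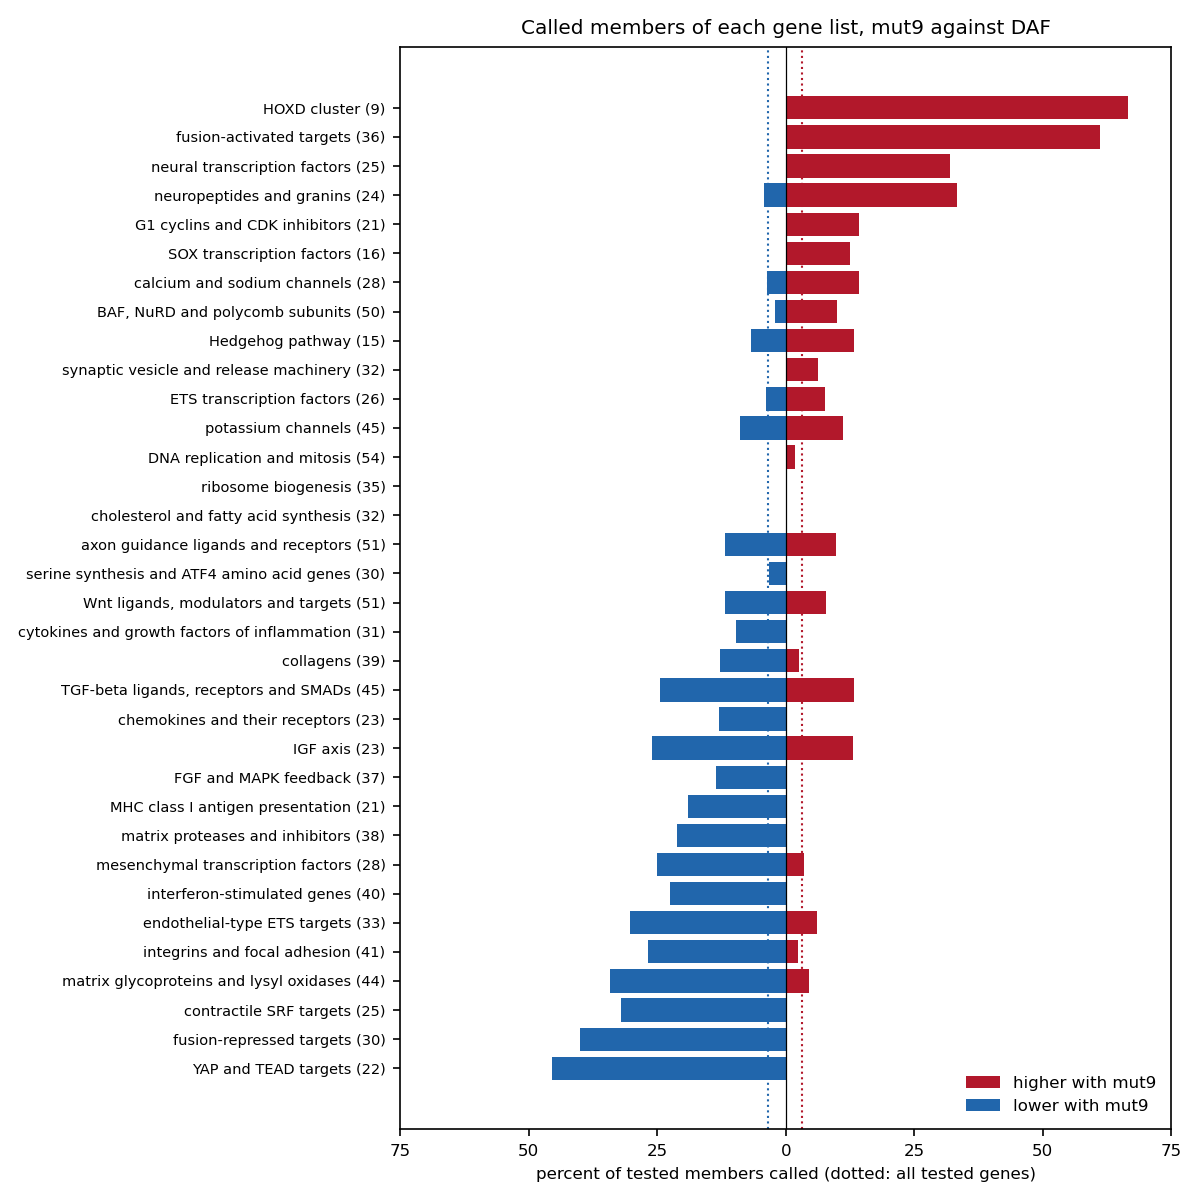
Percent of the tested members of each of 34 gene lists (number tested in brackets) that were called higher (red, right) or lower (blue, left) with mut9. Dotted lines mark the shares over all tested genes, 3.13% higher and 3.48% lower. Protein-coding genes alone were called more often, 1673 of 16417 either way. HOXD genes and known activated targets lie at one end and YAP and TEAD targets at the other. The lists were chosen with earlier results of these data known.

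Growth factor pathways were taken member by member. Of 45 TGF-beta ligands, receptors, antagonists and SMADs, 11 fell and 6 rose with mut9 (37.8% called). Those that fell included ligands (TGFB1, TGFB2, INHBA), both TGF-beta receptor chains TGFBR1 and TGFBR2, and the co-receptor ENG (19.8 against 35.5 CPM, log2 fold change -0.85 ± 0.15, adjusted p = 0.00108). LTBP2, named as a member of the latent TGF-beta binding protein family, fell too (5.93 against 13.6 CPM, log2 fold change -1.19 ± 0.20, adjusted p = 0.000683). Those that rose were the ligands GDF6 (80.7, 108 and 73.1 CPM with mut9 and 35.6, 20.3 and 27.4 CPM with DAF, log2 fold change 1.63 ± 0.19, adjusted p = 1.45e-05) and BMP7, the receptors BMPR1A and ACVR2B, and SMAD9, a BMP-responsive SMAD (52.6, 57 and 55 CPM with mut9 and 37.4, 17.7 and 23.5 CPM with DAF, log2 fold change 1.12 ± 0.19, adjusted p = 0.000711), together with SMAD6. BMP1, a procollagen protease, and BMP6 fell. The count of 17 was 9 without mut9 replicate 2, 9 without DAF replicate 2 and 11 without mut9 replicate 3. In the IGF axis, 3 of 23 rose and 6 fell (39.1% called). Beside the ligand IGF1, the adaptor IRS2 rose (138, 146 and 122 CPM with mut9 and 56.1, 61.8 and 59.8 CPM with DAF, log2 fold change 1.20 ± 0.21, adjusted p = 0.00112), and the binding proteins IGFBP1 (1.7 against 5.84 CPM, log2 fold change -1.82 ± 0.34, adjusted p = 0.00194), IGFBP3, IGFBP6 and IGFBP7 fell. Without any one library, 7 to 9 genes of the IGF axis were called.

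Wnt genes gave 4 rises and 6 falls among 51 (19.6% called). Secreted antagonists stood on both sides, with DKK2 and FRZB higher and DKK3 lower with mut9. DKK3 was at 35.9, 34.1 and 39.9 CPM with mut9 and 125, 135 and 127 CPM with DAF (log2 fold change -1.80 ± 0.20, adjusted p = 8.74e-06), but 5681 of its exon bases lie opposite USP47. ROR1, a receptor for Wnt5a, was at 17.2, 19.1 and 14.3 CPM with mut9 and 39.4, 41.9 and 43.1 CPM with DAF (log2 fold change -1.30 ± 0.14, adjusted p = 5.26e-06). Without any one library, 9 to 12 Wnt genes were called. Of 15 Hedgehog genes, the target and effector GLI1 (1.2, 1.69 and 1.05 CPM with mut9 and 0.218, 0.512 and 0.657 CPM with DAF, log2 fold change 1.53 ± 0.35, adjusted p = 0.00991) and the receptor PTCH1 (11.3 against 7.79 CPM, log2 fold change 0.53 ± 0.16, adjusted p = 0.0457) rose, and the co-receptor BOC fell (1.63 against 3.15 CPM, log2 fold change -0.94 ± 0.21, adjusted p = 0.00817). None of the list was called without mut9 replicate 2, and 1 was called when either DAF replicate 1 or 2 was left out. PTCH1 lost its call in 8 of 13 alternatives, among them no replicate block and every single mut9 library left out, GLI1 in 4 (without mut9 replicate 2, DAF replicate 1 or DAF replicate 2, and with ComBat-adjusted values), and BOC without mut9 replicate 2 or DAF replicate 3. GLI1 remained far below its iLuc mean of 9.57 CPM. Of 37 FGF and MAPK feedback genes, 5 fell and none rose (13.5% called, against 6.61% over all tested genes and 1673 of 16417 protein-coding genes). DUSP4, a MAPK phosphatase, averaged 40.9 against 84.6 CPM, log2 fold change -1.05 ± 0.16, adjusted p = 0.000374, and FGFR1 was at 194, 193 and 195 CPM with mut9 and 246, 268 and 260.5 CPM with DAF (log2 fold change -0.41 ± 0.09, adjusted p = 0.00824), a small difference in tightly grouped libraries that was not called without mut9 replicate 2. Only 1 was called without mut9 replicate 2, and leaving out DAF replicate 1 or 2 left 3 or 2.

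Every called member of the 4 immune and inflammatory lists was lower with mut9. CXCL9, an interferon-induced chemokine (chr4:76922428-76928662), was at 1.16, 0.393 and 1.05 CPM with mut9 and 8.21, 31 and 12 CPM with DAF (log2 fold change -3.90 ± 0.53, adjusted p = 8.43e-05). TNFSF10, the death ligand TRAIL (chr3:172223298-172241265), was at 1.36, 0.736 and 1.16 CPM with mut9 and 9.44, 26.2 and 11.2 CPM with DAF (log2 fold change -3.53 ± 0.55, adjusted p = 0.000353). IDO1, a tryptophan-degrading enzyme, was at 1.8, 0.54 and 0.756 CPM with mut9 and 13.9, 14.6 and 10.2 CPM with DAF (log2 fold change -3.56 ± 0.45, adjusted p = 4.6e-05). These genes were chosen among those whose groups did not overlap, so their separation is no added result. In CXCL9 and TNFSF10 replicate 2 was the highest of the DAF libraries and the lowest of the mut9 libraries. The DAF levels of CXCL9 and IDO1 were above iEF (DAF over iEF 4.45 ± 0.53, adjusted p = 1.85e-05, and 2.53 ± 0.42, adjusted p = 0.00072), whereas mut9 over iEF was 0.55 ± 0.57 and -1.04 ± 0.46 (adjusted p = 0.618 and 0.154). Both comparisons use the same iEF libraries. Means with Δ22 and DAF-mut9 lay between iEF and DAF, at 3.00 and 5.08 CPM for CXCL9 and 5.03 and 7.18 CPM for IDO1. The summed blood cell markers lay in the same order as these genes, at 3.53 to 3.98 CPM with DAF and 2.09 to 2.36 CPM with mut9. CD3E was at 0 counts, CD14 at 53 to 115 and PTPRC at 8 to 28. None of the 4 tested markers was called by edgeR, with 1 at an unadjusted p below 0.05 and 1 called by DESeq2. Their part in the result was not tested.

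Of 40 interferon-stimulated genes, 39 had a negative value, with a median of -0.72, and 9 were called (22.5%), all lower with mut9. SAMD9L was at 131, 53.7 and 91.1 CPM with mut9 and 259, 324 and 242 CPM with DAF (log2 fold change -1.58 ± 0.23, adjusted p = 0.000151), SAMD9 at 229, 136 and 229 CPM with mut9 and 386, 573 and 421 CPM with DAF (log2 fold change -1.19 ± 0.23, adjusted p = 0.00223) and GBP1, an interferon-induced GTPase, at 108, 57.3 and 68.8 CPM with mut9 and 152, 221 and 204 CPM with DAF (log2 fold change -1.30 ± 0.23, adjusted p = 0.00134). Leaving out mut9 replicate 1 gave 18 calls, mut9 replicate 2 or 3 gave 3, DAF replicate 2 gave 4, and DAF replicate 3 gave 3. GBP4, a related GTPase, was at 5.48, 2.31 and 3.43 CPM with mut9 and 18.1, 30.5 and 23.1 CPM with DAF (log2 fold change -2.51 ± 0.60, adjusted p = 0.013) and lost its call without mut9 replicate 2 or 3. The MHC class I list had 20 of 21 negative values and 4 calls, the peptidase ERAP2 (7.12 against 12.4 CPM, log2 fold change -0.81 ± 0.20, adjusted p = 0.0149), the transporter TAP1 (73.7 against 140.5 CPM, log2 fold change -0.93 ± 0.23, adjusted p = 0.015), PSMB9 and HLA-C. The 4 calls were 19.0% of this list. It had 9 calls without mut9 replicate 1, 0 without mut9 replicate 2, 0 without DAF replicate 3, and 1 without mut9 replicate 3 or DAF replicate 2. ERAP2 was not called without mut9 replicate 2 or DAF replicate 3, and TAP1 not without mut9 replicate 2 or 3 or DAF replicate 2 or 3. HLA genes are close paralogs, so their counts are uncertain. Of 23 chemokine genes 3 fell and none rose, CXCL9, CCL8 at 0 to 1 count with mut9 and 11 to 24 with DAF, and CXCR4 (10.3, 21.8 and 19.3 CPM with mut9 and 22.6, 70.6 and 48.1 CPM with DAF, log2 fold change -1.42 ± 0.37, adjusted p = 0.0224), whose call was lost in 6 alternatives, including any mut9 library or DAF replicate 2 left out. CCL8 was not called by DESeq2 or without mut9 replicate 2. The chemokine count, 13.0% of the list, was 1 without mut9 replicate 2 and 2 without DAF replicate 2. Of 31 inflammatory cytokines, TNFSF10, TNFSF13B and IL1B fell (9.68% called, against 6.61% over all tested genes). That is below the share over protein-coding genes, 1673 of 16417. Of this list, 1 was called without the second library of either group and 2 without DAF replicate 1. IL1B was at 93.9, 23.6 and 105 CPM with mut9 and 97.9, 488 and 205 CPM with DAF, with overlapping groups (log2 fold change -1.71 ± 0.49, adjusted p = 0.0381), and was not called without mut9 replicate 2 or 3 or DAF replicate 2.

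A last set comprised genes of endothelium that ETS factors are known to drive. Of 33 tested, 10 were lower with mut9 and 2 higher (36.4% called, median log2 fold change -0.61). TIE1, an endothelial receptor kinase, was at 1.48, 1.33 and 4.01 CPM with mut9 and 8.57, 10.5 and 8.76 CPM with DAF (log2 fold change -2.12 ± 0.36, adjusted p = 0.000947). CD34, a sialomucin of endothelial and progenitor cells, was at 0.786, 0.172 and 0.756 CPM with mut9 and 3, 10.2 and 6.35 CPM with DAF (log2 fold change -3.27 ± 0.57, adjusted p = 0.00112), and FLT1, a receptor for VEGF, averaged 31 against 62.6 CPM, log2 fold change -1.03 ± 0.17, adjusted p = 0.000652. CD34 was above iEF with DAF (2.90 ± 0.55, adjusted p = 0.00199), and mut9 over iEF was -0.37 ± 0.61 (adjusted p = 0.778). The defining endothelial genes CDH5, VWF and TEK had 6 to 34, 3 to 10 and 0 to 3 counts in the 6 libraries. The count of 12 was 7 without mut9 replicate 2 and 7 without DAF replicate 2. In bulk RNA, fewer cells with a transcript and less of it per cell cannot be told apart. Outside the lists, S1PR1, a sphingosine 1-phosphate receptor, was at 1.64, 2.04 and 2.97 CPM with mut9 and 8.9, 22.3 and 19 CPM with DAF (log2 fold change -2.90 ± 0.30, adjusted p = 5.47e-06), and ABI3BP, a matrix protein, at 23.6, 13.9 and 23.9 CPM with mut9 and 90.4, 159 and 90.9 CPM with DAF (log2 fold change -2.42 ± 0.27, adjusted p = 1.19e-05). For both, DAF stood above every other group mean, with 4.69 and 32.1 CPM in iEF, 4.15 and 26.5 CPM with Δ22 and 1.43 and 6.43 CPM with WT-EF. DAF over iEF was 1.94 ± 0.29 (adjusted p = 0.000229) for S1PR1 and 1.83 ± 0.27 (adjusted p = 0.000168) for ABI3BP. Of 26 ETS factors, ETV1 rose with mut9 (77.2, 95.4 and 63.3 CPM with mut9 and 57.3, 34.2 and 40.5 CPM with DAF, log2 fold change 0.87 ± 0.16, adjusted p = 0.00216), FEV rose and ELF4 fell, and 1 was called without the second library of either group and 2 without mut9 replicate 3. ELF4 averaged 17.7 against 29.1 CPM, log2 fold change -0.71 ± 0.18, adjusted p = 0.0194, and FEV was at 0.231, 0.859 and 0.931 CPM with mut9 and 0.164, 0.151 and 0.219 CPM with DAF (log2 fold change 1.80 ± 0.42, adjusted p = 0.0107). Without mut9 replicate 2 or DAF replicate 2 neither was called, nor was ELF4 without mut9 replicate 3 or FEV without DAF replicate 3. ETV1, FEV and ELF4 were 11.5% of the ETS factors, against 6.61% called over all tested genes and 1673 of 16417 protein-coding genes.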

How the data were processed

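The analysis of the A673 RNA-seq libraries started from the raw counts that the authors deposited. Per the study's methods and the submitters' processing notes, the authors aligned paired-end reads to hg19 with STAR (2.5.1b in the notes) and counted reads per Ensembl gene with htseq-count (intersection-strict). Which annotation release and strand setting they used is not given in the sources used here. The authors also deposited counts adjusted with ComBat for each replicate set (a signal, not scaled for library size), used here as an alternative only. Another table, with the authors' own DESeq2 comparisons with iEF, was not used. The columns mut9d were read as DAF-mut9. In the raw count table the 5 summary lines were empty.

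Of 57820 genes, 30549 averaged at least 1 count over the libraries and were tested with edgeR 4.0.16 in R 4.3.3, with TMM normalization, all 21 libraries and terms for group and replicate set, the set being included because the authors adjusted for it. Endo-EF (iLuc over iEF) and WT-EF over Δ22 were fitted in the same model and share no library with mut9 or DAF, though one dispersion estimate. Slopes used log2 CPM with a prior count of 2. Library totals of 32.9 to 43.8 M set the depth, and intervals cover counting error only. Gene places and symbols (29538 of the tested genes) are from GENCODE release 44 lifted to GRCh37, the build that corresponds to hg19, and sequences were read from GRCh37. The members and gene lists were chosen with earlier results of these data known. Named genes were 7 fixed genes, up to 10 each way by absolute log2 fold change among called protein-coding genes with at least 5 CPM and non-overlapping groups, and up to 4 called members of each list by adjusted p, or the member of lowest p where fewer than 2 were called. Not all are printed, and a few genes are not reported here. NPY1R, NPY5R and list members given without values were named after their values were seen. Scripts were tested on simulated data. Alternatives were DESeq2 1.42.0, RLE normalization, no replicate block, the filterByExpr filter, no filter on low counts, only the compared groups, ComBat values with limma 3.58.1, a 2-fold minimum, a prior count of 0.5 and leaving out each library.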

Additional observations from a re-analysis of the deposited data

How the results depend on the processing

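No named gene that was called reversed under any alternative. This says little, since 113 of the 119 had non-overlapping groups, which leaving out a library could hardly reverse. Of the 119, 79 kept their call under every alternative that tested them. Fewest calls were kept without mut9 replicate 2 (89 of 119), without DAF replicate 2 (98) and with ComBat-adjusted values (84 of the 102 that have a row there). Calls lost with the ComBat-adjusted values include FOXC1, CALCB, ITGA3 and FHL2. Leaving out 1 library at a time gave 872 to 1684 changed genes, 468 to 800 higher and 402 to 884 lower with mut9, 94.9 to 97.3% of endo-EF genes on the side of the endogenous fusion, 90.9 to 94.2% also called with WT-EF over Δ22, and slopes of 0.15 to 0.24. DESeq2 called 1630 genes lower with mut9. With no low-count filter 3082 genes changed, 1781 of them lower, 94.0% lay on the side of the fusion and 88.0% were also called with WT-EF over Δ22. ComBat-adjusted values gave 1741 genes higher against 748 lower and 85.4% shared with WT-EF over Δ22, where the median of all genes was 0.11 against 0.05. RLE normalization gave 883 higher and 1185 lower, and filterByExpr 971 and 1452. With a 2-fold minimum 1007 changed, 546 higher and 461 lower, and 84.6% were shared. With only the compared groups 94.3% were shared. Without the replicate block 1510 genes changed and 97.7% lay on the side of the fusion, and 12 of the 119 named calls were lost, among them CCN2, LOX, PTCH1, SOX1, CXCR4, PSMB9, HLA-C, CDKN2C and TNFSF13B. Same-numbered mut9 and DAF libraries did not deviate together (r = 0.046, -0.015 and 0.059 over all tested genes). Over genes of at least 5 CPM, r was -0.025, -0.171 and 0.036. The other groups were not compared in this way, so these values do not decide whether the sets are related over all 21 libraries. The causes were not tested. The prior count of 0.5 gave a slope of 0.19. At 3 counts, the limit that a count of 0 allows, genes below about 0.1 CPM could not be ranked.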
